A study of Mus musculus with 4 samples.

Results

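The genes described here encode 10 proteins of triglyceride synthesis: Pck1, Gpd1, Gpam, Agpat2, Agpat3, Lpin1, Lpin2, Dgat1, Dgat2 and Bscl2. They were chosen by symbol for their place in the pathway, from glycerol 3-phosphate supply through the acylation steps, and all 10 were found among 39179 genes in the table. RNA with a poly(A) tail came from mouse epididymal white adipose tissue, the fat pad beside the epididymis. The 2 groups were wild-type (WT, 2 libraries) and Nck2 mutant, titled Nck2 KO (KO, 2 libraries), on a mixed genetic background in both. Nck2 encodes an adaptor that connects phosphorylated receptors with the actin cytoskeleton. The mutant allele, the age of the mice, and whether a library came from 1 animal or from a pool are not given in the sources used here. No label says that the libraries of a group are separate animals, so each p-value below reflects only the spread between these libraries.

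Adipocytes store fatty acids as triglyceride, built by adding acyl chains to glycerol 3-phosphate. White fat makes much of that backbone from dihydroxyacetone phosphate, either from glucose or from pyruvate by glyceroneogenesis, in which PEPCK (Pck1) and glycerol 3-phosphate dehydrogenase (Gpd1) act. GPAT enzymes add the first acyl chain, AGPAT enzymes the next, lipins remove the phosphate to give diacylglycerol, and DGAT enzymes add the last chain, while seipin (Bscl2) organises the lipid droplets that receive the product.

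Sequence is shown for the promoters of an acyltransferase that rose, one that did not pass the test, and the lipin pair, of which Lpin1 rose and Lpin2 did not pass. The RefSeq promoter table (GRCm38.p6) matched 7 of the 10 genes, with 12 start sites. For 4 of these the 250 bases before the start overlapped no annotated exon and the next 50 bases lay in an annotated transcript, and these 4 are printed 5′ to 3′ on the gene's strand. Agpat2 is at chr2:26604418-26604667 (minus strand), Lpin1 at chr12:16610967-16611216 (minus), Lpin2 at chr17:71204404-71204653 (plus, the farthest downstream of its 3 starts, inside the GENCODE gene) and Gpam at chr19:55127239-55127488 (minus). Capitals mark matches to any of 6 motifs on either strand.
Agpat2: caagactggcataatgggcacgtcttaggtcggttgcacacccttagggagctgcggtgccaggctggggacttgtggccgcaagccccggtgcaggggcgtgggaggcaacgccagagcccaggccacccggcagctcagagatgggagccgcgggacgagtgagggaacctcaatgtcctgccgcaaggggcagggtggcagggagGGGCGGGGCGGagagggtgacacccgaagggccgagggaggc
Lpin1: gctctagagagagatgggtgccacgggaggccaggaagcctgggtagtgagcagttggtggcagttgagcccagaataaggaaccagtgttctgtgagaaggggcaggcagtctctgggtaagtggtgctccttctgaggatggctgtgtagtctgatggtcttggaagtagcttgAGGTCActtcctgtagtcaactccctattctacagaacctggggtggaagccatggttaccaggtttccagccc
Lpin2: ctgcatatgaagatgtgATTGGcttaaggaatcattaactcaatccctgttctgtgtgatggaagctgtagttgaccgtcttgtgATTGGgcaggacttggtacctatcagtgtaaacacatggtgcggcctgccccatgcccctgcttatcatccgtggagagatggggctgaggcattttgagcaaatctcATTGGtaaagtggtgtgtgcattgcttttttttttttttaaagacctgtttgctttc
Gpam: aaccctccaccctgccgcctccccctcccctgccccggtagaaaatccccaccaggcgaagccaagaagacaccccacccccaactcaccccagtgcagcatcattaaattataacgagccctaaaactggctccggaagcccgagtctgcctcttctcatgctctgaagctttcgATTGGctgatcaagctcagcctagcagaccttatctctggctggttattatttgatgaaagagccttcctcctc
The motifs searched were the GC box GGGCGG, the box named for its letters CCAAT, the nuclear receptor half-site AGGTCA, the TATA box as TATAAA, the E-box CACGTG and the cAMP response element TGACGTCA. Over all 32851 promoter entries of the same 250 bases, GGGCGG occurred in 32.7%, CCAAT in 33.8%, AGGTCA in 14.0%, TATAAA in 12.4%, CACGTG in 6.02% and TGACGTCA in 1.55%. The Agpat2 window held a pair of GC boxes that share 1 base, 42 to 32 bases before the start. The Lpin1 window held AGGTCA at 74 to 69 bases before the start. CCAAT was found in reverse in the Gpam window, at 74 to 70 bases, and in the Lpin2 window, nearest at 57 to 53 bases. These matches describe the letters only.

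Library content differed between the groups, and this stands beside every result below. The libraries held 31831904 to 37980391 reads assigned to genes. Levels are normalized counts, the reads of a gene divided by a size factor for its library. Where 2 values are given for a group, replicate 1 comes first. Each fold change is a KO mean less a WT mean of log2(normalized count + 1), with its standard error (SE). Calls use limma with Benjamini-Hochberg adjustment over every gene tested, at 0.05. Nck2 itself was at 1279 and 1667 in the WT pair and 1076 and 947.3 in the KO pair (log2 fold change -0.53, SE 0.16, adjusted p = 0.0509). It did not pass the test, but did with DESeq2 on recovered reads (-0.55, adjusted p = 0.0184) and with a pseudocount of 5 (0.0495), over a range of 0.0184 to 0.191 in the 12 alternatives. As a total over the gene it does not check the labels. Over all genes tested, 22.4% were higher and 24.4% lower in KO. Of 18 mature adipocyte markers, 13 were higher in KO and the other 5 did not pass. Their sums were 1103100 and 737328 in the WT pair and 2616130 and 2931967 in the KO pair. None was at 0, and Adipoq, encoding adiponectin, ranged from 29702 to 142401 over the 4 libraries. Of 11 tested epididymis and male tract markers, 10 were lower in KO, and the 14 markers summed to 1216107 and 1513981 in the WT pair and 500.3 and 378.3 in the KO pair. Lcn5, Lcn8 and Lcn9 were at 0 in both KO libraries. In the WT pair Lcn5 was at 1825 and 94.9. Lcn8, at 1.019 and 23.26 there, and Lcn9, at 0 and 22.33, were too low to be tested. All 10 smooth muscle markers were lower in KO, with sums of 547901 and 726023 against 20358 and 24679. The 7 macrophage markers were all higher, with sums of 20296 and 19404 against 45710 and 42639. The 9 brown or beige adipocyte markers summed to 733.6 and 578.7 against 1001 and 5402. Of these 1 passed, Ucp1, at 21.4 and 5.582 in the WT pair and 227.7 and 2842 in the KO pair. The part of these differences in the results was not tested. In bulk tissue, fewer cells of a type and less RNA per cell cannot be told apart.

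Triglyceride synthesis genes were higher in the KO libraries at most steps, from 0.47 to 2.55 on the log2 scale for the genes that passed. Gpam, at the first acylation, and Lpin2 showed no rise, and Gpd1 was higher in both KO libraries without passing. Of the 10 genes, all of which passed the filter on low values, 7 rose (Pck1, Agpat2, Agpat3, Lpin1, Dgat1, Dgat2 and Bscl2), none fell, and Gpd1, Gpam and Lpin2 (3) missed the threshold. The count lower was also 0 at an unadjusted p under 0.05 with limma, and 0 with edgeR and with DESeq2. Among all 16710 genes tested, 22.4% were higher and 24.4% lower. The median log2 fold change was 1.28 over the 10 genes and -0.01 over all genes. Among the marker lists it was 1.62 for mature adipocyte, 1.98 for brown or beige adipocyte and 1.23 for macrophage genes. It was -4.51 for smooth muscle and -11.52 for epididymis and male tract genes. Both KO libraries lay above both WT libraries for 8 of the 10 genes, a pattern seen in 38.9% of all genes tested, and below for 1, a pattern seen in 40.6%. Together the 10 genes took 0.359% of reads in WT replicate 1 (0.357 to 0.361, exact 95% interval), while WT replicate 2 gave 0.173% (0.171 to 0.174). In KO replicates 1 and 2 they took 0.712% (0.709 to 0.714) and 0.768% (0.765 to 0.771). These intervals cover counting error only.

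**Figure D1:**
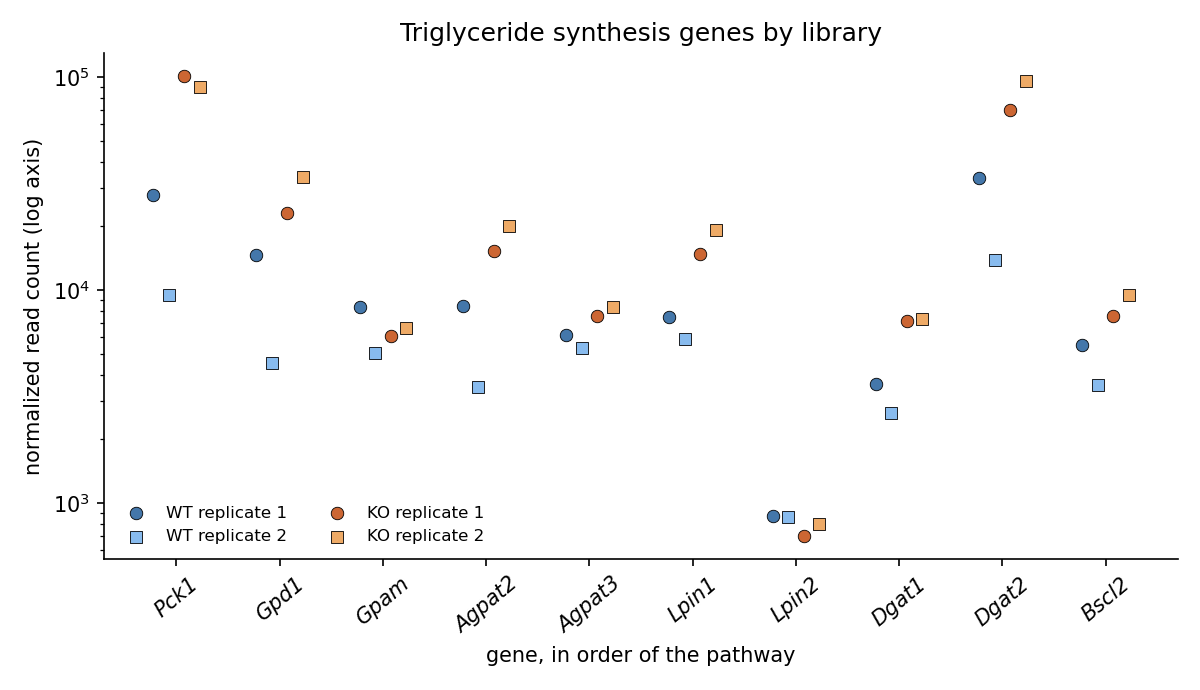
Normalized read count (log axis) of each of the 10 genes in the 2 WT and 2 KO libraries, 1 point per library. Pck1 and Dgat2 reach about the same level in KO, Lpin2 lies lowest in all libraries, and Gpam is the gene whose groups overlap.

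Of the 7 calls, that of Dgat1 alone was kept whichever library was left out. Without WT replicate 2, 1 of the 10 genes passed (Dgat1), and 3.14% of all genes were called higher. Without WT replicate 1, 3 passed (7.21% of all genes), without KO replicate 1, 3 passed (17.0%), and without KO replicate 2, 2 passed (14.3%). Each of these fits assumes that the lone library left in a group varies like the other group, and each has fewer degrees of freedom. The direction of the 7 genes that rose was upward in every one of these fits.

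Pck1 encodes cytosolic phosphoenolpyruvate carboxykinase, a key enzyme of glyceroneogenesis. Pck1 (ENSMUSG00000027513, GRCm38 chromosome 2, 173153048 to 173159273) had normalized counts of 27846 and 9457 in the WT pair and 101016 and 89623 in the KO pair. Both KO libraries were above both WT libraries, and the WT libraries differed 2.94-fold. The log2 fold change was 2.55 (SE 0.54, adjusted p = 0.0219), the highest of the 10 genes. It was 1.77 without WT replicate 2 (adjusted p = 0.0647), 2.47 without KO replicate 1 (0.0765) and 2.64 without KO replicate 2 (0.0718), and did not pass in those fits.

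Gpd1 encodes the cytosolic enzyme that reduces dihydroxyacetone phosphate to glycerol 3-phosphate. Gpd1 (ENSMUSG00000023019, chromosome 15, 99717515 to 99725005) was at 14567 and 4565 in the WT pair and 23102 and 33799 in the KO pair. The KO libraries were both higher, but the WT libraries differed 3.19-fold, the widest replicate gap among the 10 genes. The log2 fold change of 1.78 (SE 0.60, adjusted p = 0.0723) did not pass, nor did it in any of the 12 alternatives (0.0531 to 0.222). Leaving out WT replicate 2 gave 0.94, and leaving out WT replicate 1 gave 2.61.

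Gpam encodes the mitochondrial glycerol 3-phosphate acyltransferase GPAT1. Gpam (ENSMUSG00000024978, chromosome 19, 55067268 to 55127238) was at 8332 and 5083 in the WT pair and 6070 and 6647 in the KO pair, so that both KO values lay between the WT values. The log2 fold change was -0.04 (SE 0.25, adjusted p = 0.919). Its sign depended on the libraries, from -0.39 without WT replicate 2 to 0.32 without WT replicate 1, and it passed in none of the 12 alternatives. Of the other GPAT genes, Agpat9 (now Gpat3), an isoform of the endoplasmic reticulum, rose from 5764 and 3963 to 9528 and 10268 (log2 fold change 1.05, SE 0.20, adjusted p = 0.0155). It was 0.78 without WT replicate 2 (0.0586) and 1.0 without KO replicate 2 (0.0654). Agpat6 (now Gpat4), also of the endoplasmic reticulum, was at 5703 and 6220 against 6363 and 6554 (0.12, adjusted p = 0.262).

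Agpat2 and Agpat3 both rose. Agpat2, whose loss in humans causes congenital generalised lipodystrophy, is the main AGPAT of adipocytes. Agpat2 (ENSMUSG00000026922, chromosome 2, 26593057 to 26604417) was at 8425 and 3509 in the WT pair and 15159 and 20038 in the KO pair, with a log2 fold change of 1.68 (SE 0.45, adjusted p = 0.0409). The groups did not overlap. It was 1.05 without WT replicate 2 (adjusted p = 0.113), 1.88 without KO replicate 1 (0.0846) and 1.48 without KO replicate 2 (0.144). With edgeR on recovered reads the adjusted p was 0.0544, so the call was also lost there (21.0% of all genes were higher by that test). Agpat3 (ENSMUSG00000001211, chromosome 10, 78269178 to 78352489), a paralog expressed in many tissues, was at 6149 and 5362 in the WT pair and 7554 and 8334 in the KO pair. Its groups did not overlap either, and its log2 fold change of 0.47 (SE 0.10, adjusted p = 0.024) was the lowest of the 7 rises. Adjusted p-values were 0.0731 without WT replicate 1, 0.136 without WT replicate 2 and 0.0955 without KO replicate 2.

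Of the lipins, phosphatidate phosphatases that also act as nuclear coactivators, Lpin1 rose, Lpin3 fell and Lpin2 did not pass. Lpin1, the lipin mutated in the fatty liver dystrophy mouse, is the main isoform of white fat. Lpin1 (ENSMUSG00000020593, chromosome 12, 16535669 to 16610966) was at 7464 and 5866 in the WT pair and 14696 and 19092 in the KO pair, without overlap. The log2 fold change was 1.34 (SE 0.19, adjusted p = 0.00717), with 1.51 without WT replicate 1 (0.0621) and 1.17 without WT replicate 2 (0.0958). Lpin2 (ENSMUSG00000024052, chromosome 17, 71182560 to 71249817), an isoform prominent in liver, was at 865 and 857.8 in the WT pair and 699 and 796.7 in the KO pair. The KO pair was the lower one, by less than the test could call (-0.21, SE 0.0948, adjusted p = 0.143). Lpin3, the remaining family member, was at 560.4 and 483.8 in the WT pair and 244.5 and 358.2 in the KO pair (-0.81, SE 0.22, adjusted p = 0.0408). Its adjusted p was 0.247 without WT replicate 1, 0.193 without WT replicate 2 and 0.0669 without KO replicate 1.

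The DGAT genes, which encode structurally unrelated enzymes of the final step, both rose. Dgat1 (ENSMUSG00000022555, chromosome 15, 76502015 to 76511953) was at 3608 and 2648 in the WT pair and 7123 and 7306 in the KO pair. The KO libraries were close to each other and well above the WT pair. The change was 1.22 on the log2 scale (SE 0.16, adjusted p = 0.00632), and it passed in all 12 alternatives (1.0 to 1.45, adjusted p 2.11e-09 to 0.0407). Dgat2 (ENSMUSG00000030747, chromosome 7, 99153658 to 99182719), the isoform tied to newly made fatty acids, was at 33655 and 13831 in the WT pair and 70179 and 95288 in the KO pair. Its log2 fold change was 1.92 (SE 0.47, adjusted p = 0.0323), with no overlap and a 2.43-fold gap between the WT libraries. Without WT replicate 1 it was 2.56 (adjusted p = 0.0507), without WT replicate 2 it was 1.28 (0.124), without KO replicate 1 it was 2.14 (0.0711) and without KO replicate 2 it was 1.7 (0.119).

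Bscl2 encodes seipin, an endoplasmic reticulum protein of lipid droplet assembly whose loss also causes lipodystrophy. Bscl2 (ENSMUSG00000071657, chromosome 19, 8837467 to 8848683) was at 5544 and 3577 in the WT pair and 7588 and 9468 in the KO pair. The groups did not overlap, and the log2 fold change was 0.93 (SE 0.25, adjusted p = 0.0394). Leaving out WT replicate 1, WT replicate 2, KO replicate 1 or KO replicate 2 gave 1.24, 0.61, 1.09 and 0.77, with adjusted p-values of 0.0637, 0.161, 0.0677 and 0.141. Reads of overlapping genes cannot be told apart if strand was not used in counting. Bscl2 shares 398 exon bases (6.7% of its exon length) with Gng3 on the opposite strand, at 9.17 to 43.52 normalized counts. It also shares 239 bases (4.1%) with AC129217.1 on the same strand, where reads cannot be told apart even if strand was used; that gene was not analysed here. Gpd1 shares 384 bases (13%) with the antisense Gm16537, at 0 to 3.35. Agpat2 shares 64 bases (3.0%) with Egfl7, at 3007 and 2451 in the WT pair and 4006 and 4997 in the KO pair. Any part of Egfl7 reads in the Agpat2 values was not tested.

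**Figure D2:**
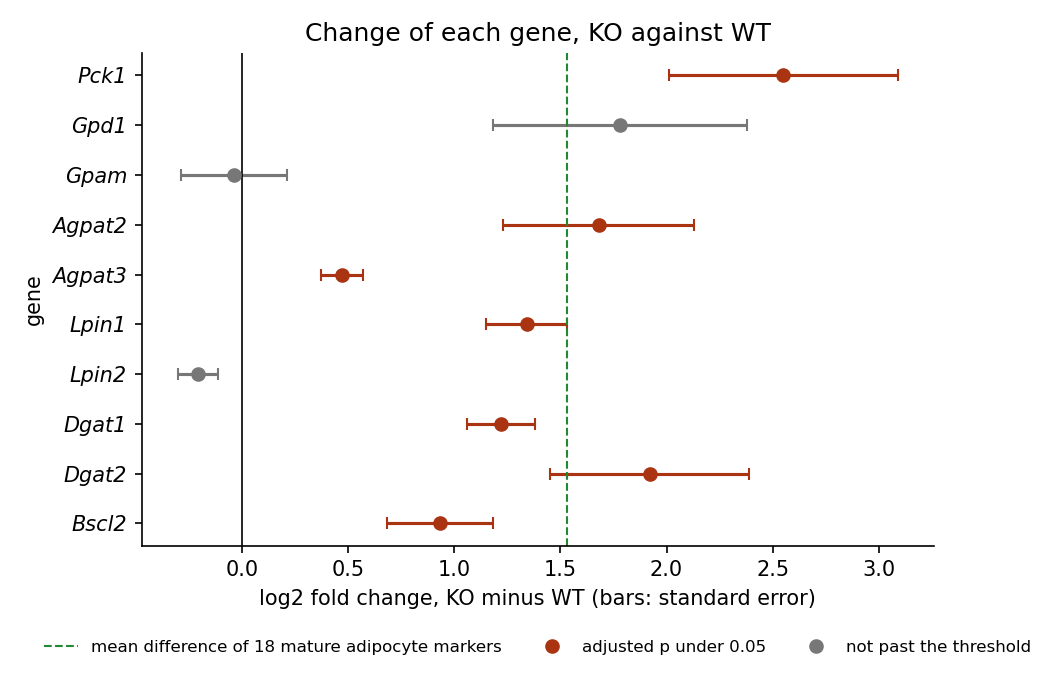
Log2 fold change (KO minus WT) of each gene with its standard error, coloured by whether the adjusted p was under 0.05; the dashed line is the mean difference of the 18 mature adipocyte markers, 1.53. Values run from -0.21 for Lpin2 to 2.55 for Pck1.

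In the authors' deposited table the same 7 genes had adjusted p-values under 0.05, from 3.57e-10 for Lpin1 to 0.0337 for Agpat2. The authors' deposited table gave an adjusted p of 0.107 for Gpd1, 0.85 for Gpam and 0.33 for Lpin2. It was made from the same 4 libraries.

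The 10 genes differed widely in level when counts were divided by exon length. In WT the mean normalized count per kb of exon was highest for Dgat2 (7700), then Pck1 (5440), Gpd1 (3230) and Agpat2 (2800). The libraries of each of these genes overlapped those of its neighbour among the 4, but those of Agpat2 and Dgat1 did not overlap. Dgat1 (1020), Gpam (1010), Bscl2 (773), Agpat3 (739) and Lpin1 (690) followed close together, also overlapping from neighbour to neighbour. Lpin2 was at 70.4. In KO the order by mean per kb was Pck1 (27800), Dgat2 (26800), Gpd1 (9610), Agpat2 (8260), Dgat1 (2360), Lpin1 (1750), Bscl2 (1450), Agpat3 (1020), Gpam (954) and Lpin2 (61.1). Pck1 and Dgat2 overlapped, as did Gpd1 and Agpat2, Lpin1 and Bscl2, and Agpat3 and Gpam. Gpam thus stood sixth in WT and ninth in KO.

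The balance between genes of the same step is given as the log2 ratio of their levels per kb in each library. Its differences between groups were not tested, and the share of all gene pairs whose groups do not overlap was not counted. Lpin1 to Lpin2 was 3.45 and 3.11 in the WT pair and 4.73 and 4.92 in the KO pair, a difference of 1.55 with SDs of 0.24 and 0.13 (n = 2 each). Agpat2 to Agpat3 was 2.33 and 1.26 in the WT pair and 2.88 and 3.14 in the KO pair, a difference of 1.21. The KO libraries were higher in both ratios. Dgat1 to Dgat2 was -3.21 and -2.37 in the WT pair and -3.29 and -3.69 in the KO pair, a difference of -0.70 against a WT SD of 0.59. WT replicate 1 and KO replicate 1 nearly coincide there. Pck1 to Pck2, the mitochondrial isoform, was 5.33 and 3.37 in the WT pair and 7.66 and 7.51 in the KO pair. Pck2 itself was at 1575 and 2078 in the WT pair and 1139 and 1116 in the KO pair (-0.68, SE 0.15, adjusted p = 0.0231). Its call was lost without WT replicate 2 (-0.48, 0.0668), without KO replicate 1 (-0.70, 0.0725) and without KO replicate 2 (-0.67, 0.0852). Gpd1 to Gpd1l, a related dehydrogenase, was 3.30 and 1.26 in the WT pair and 4.12 and 4.53 in the KO pair, with Gpd1l at 2532 and 3267 against 2282 and 2516 (-0.26, adjusted p = 0.202). With 2 against 2 libraries an exact permutation test cannot go below 0.33, so no p is given for ratios. Without WT replicate 2 the differences for Agpat2 to Agpat3, Dgat1 to Dgat2 and Gpd1 to Gpd1l were 0.68, -0.28 and 1.02.

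**Figure D3:**
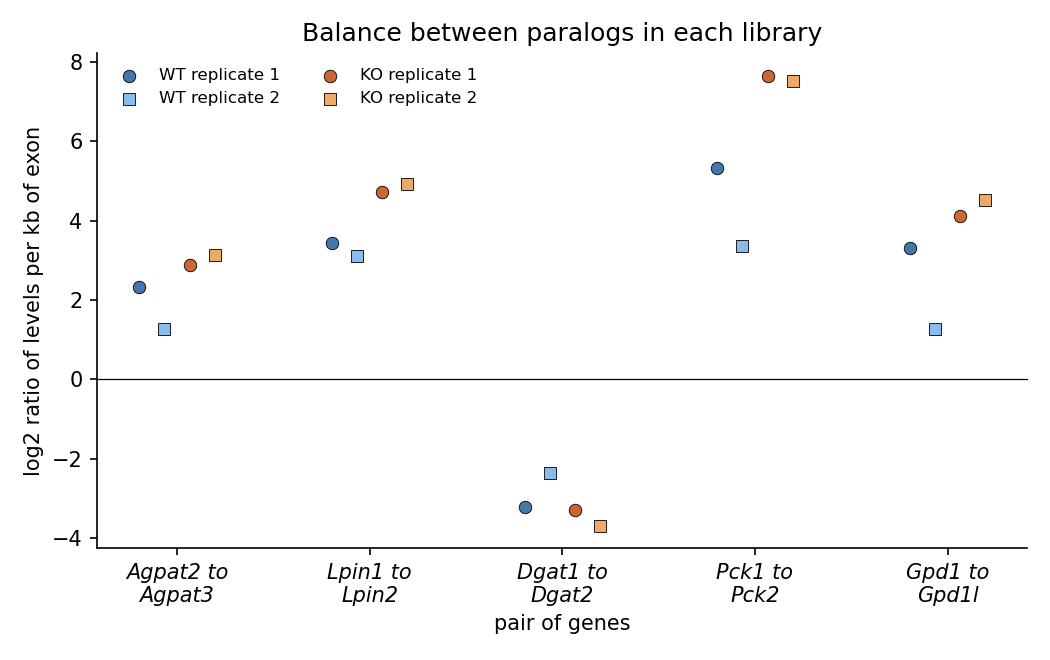
Log2 ratio of levels per kb of exon for 5 gene pairs, 1 point per library. The KO points lie above the WT points for all pairs but Dgat1 to Dgat2, where they lie below. Among single genes tested, both KO libraries lay above both WT libraries in 38.9% and below in 40.6%. The share over gene pairs was not counted.

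The spread between replicates followed a common order. WT replicate 1 was above WT replicate 2 for all 10 genes, from 1.01-fold for Lpin2 to 3.19-fold for Gpd1. The median log2 difference was 0.67 over the 10 genes and -0.0 over all genes tested. The share of all genes with either replicate order was not counted. The mean of the adipocyte markers was 0.52 higher in WT replicate 1 on the same scale. KO replicate 2 was above KO replicate 1 for 9 of the 10 genes, Pck1 being the exception, while the marker means of the KO libraries differed by -0.06 (replicate 1 minus replicate 2). Ucp1 was also higher in KO replicate 2, and its part in that order was not tested.

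The levels were also set against the mature adipocyte markers of the same library. The value used here is log2(normalized count + 1) minus the mean over the 18 markers, which itself was 14.9 and 14.38 in the WT pair and 16.14 and 16.21 in the KO pair. The subtraction moves every gene by the same amount in a library, and so lowers each difference between groups by 1.53. On this scale both KO libraries lay below both WT libraries for 92.2% of all genes tested and above for 1.9%. Pck1 was above the WT libraries in both KO libraries (-0.14 and -1.17 against 0.48 and 0.24). Agpat2, Lpin1, Dgat2 and Gpd1 overlapped, with differences between group means of 0.15, -0.19, 0.39 and 0.24. The other 5 genes lay below in both KO libraries, as most genes did, and Dgat1, Agpat3 and Bscl2 among them had risen without the subtraction. Gpam was at -1.88 and -2.07 in the WT pair and -3.58 and -3.51 in the KO pair, a difference of -1.57. Lpin2 differed by -1.74, Agpat3 by -1.07, Bscl2 by -0.61 and Dgat1 by -0.31. The median difference over the 10 genes was -0.25. These values restate the fold changes given above against that of the markers. They have no test, and the marker list was chosen with earlier results of these data known.

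**Figure D4:**
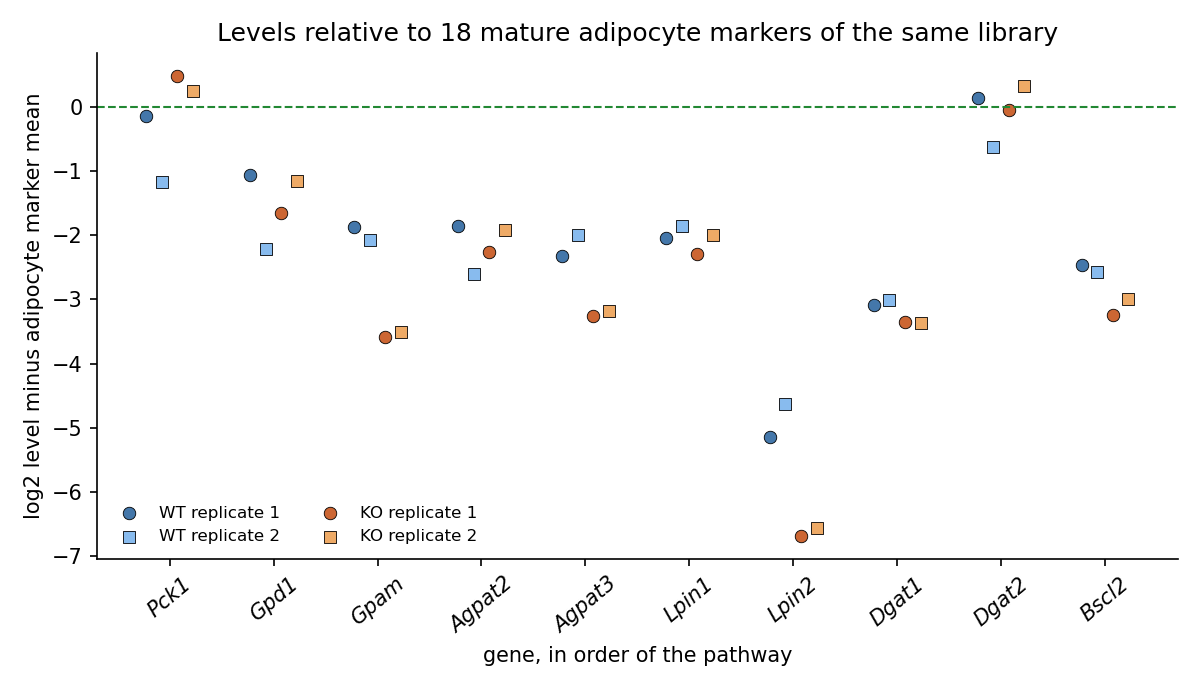
Log2 level of each gene minus the mean of 18 mature adipocyte markers in the same library, 1 point per library; the dashed line at 0 is the marker mean. Gpam and Lpin2 lie more than a log2 unit lower in both KO libraries than in both WT libraries, while Agpat2, Lpin1, Dgat2 and Gpd1 overlap; 92.2% of all genes lie lower in KO on this scale.

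The profile over the 4 libraries was also compared with other genes. The mean centred profile of the 10 genes was -0.18 and -0.99 in the WT pair and 0.46 and 0.70 in the KO pair (log2). Among 9199 other genes with a mean of 500 or more, the nearest by Euclidean distance included Adipor2 (0.0668), Nudt7 (0.0766), Abcd2 (0.0815) and BC026585 (0.105). Adipor2 encodes an adiponectin receptor, Nudt7 a peroxisomal coenzyme A hydrolase and Abcd2 a peroxisomal fatty acid transporter. Adipor2 was at 20726 and 11739 in the WT pair and 34031 and 38726 in the KO pair. Of the 10 genes themselves, Bscl2 (0.274) and Dgat1 (0.302) were nearest their common profile and Lpin2 (1.48) and Pck1 (1.51) farthest. All points share the same 4 libraries.

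Other genes of the pathway were called in both directions, with falls near the share of all genes. Of 58 listed, 56 were tested, 22 rose, 14 fell and 20 missed the threshold (median log2 fold change 0.18), beside background shares of 22.4% higher and 24.4% lower. Both counts were smaller in every fit with a library left out, and so were the counts over all genes tested.

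Enzymes of the same or related steps rose in 4 of 12 tested and fell in 3, beside 22.4% and 24.4% of all genes. Mogat2, a monoacylglycerol acyltransferase, was at 51.96 and 25.12 in the WT pair and 306.4 and 416.2 in the KO pair (log2 fold change 3.27, SE 0.41, adjusted p = 0.00539, or 2.76 and 0.058 without WT replicate 2). Lclat1, a lysocardiolipin acyltransferase, fell from 1995 and 1920 to 1197 and 1176 (-0.72, SE 0.0629, adjusted p = 0.00239). Ppap2c (now Plpp2), a lipid phosphatase, fell from 1099 and 1195 to 671.8 and 667.3 (-0.77, adjusted p = 0.00336, or 0.057 without WT replicate 2). Gpat2 and Dgat2l6 were under the filter on low values.

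Glycerol and glycerol 3-phosphate supply genes rose in 2 of 13 and fell in 5, beside 22.4% and 24.4% of all genes. Their median log2 fold change was -0.26. Aqp7, the glycerol channel of adipocytes, was at 2315 and 2117 in the WT pair and 8519 and 8909 in the KO pair (1.98, SE 0.0757, adjusted p = 0.000644). Pdk4, which restrains pyruvate dehydrogenase, rose by 1.48 (SE 0.13, adjusted p = 0.00228). In contrast Gyk (now Gk), the glycerol kinase, was at 3413 and 3006 in the WT pair and 508.8 and 638.3 in the KO pair (-2.49, SE 0.14, adjusted p = 0.00103). Got2, the mitochondrial aspartate aminotransferase, fell from 5251 and 5384 to 1184 and 1127 (-2.20, SE 0.0629, adjusted p = 0.000551). The groups of these 4 genes did not overlap. Among all genes tested, both KO libraries lay above both WT libraries in 38.9% and below in 40.6%. Gyk and Got2 fell together with the male tract and smooth muscle sums given above, whose part in these falls was not tested. The same holds for Acsl4, Cds1 and Chka below.

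Fatty acid activation genes rose in 4 of 8 and fell in 2, beside 22.4% and 24.4% of all genes. Acsl1, the main acyl-CoA synthetase of fat, was at 26405 and 24562 in the WT pair and 47217 and 51466 in the KO pair (0.95, SE 0.12, adjusted p = 0.00579). Its call was lost without WT replicate 1 (0.0691) and without WT replicate 2 (0.0869). Acsl4, a synthetase that prefers arachidonate, fell from 10653 and 14900 to 1609 and 1603 (-2.97, SE 0.17, adjusted p = 0.00111). Thus the members of the synthetase family differed in direction. Dbi, an acyl-CoA binding protein, rose by 1.30 (adjusted p = 0.0063). Leaving out WT replicate 1 or WT replicate 2 gave adjusted p-values of 0.0536 and 0.0802. Acbd4, of the same domain family, rose by 1.38 (adjusted p = 0.00446, or 0.0619 without WT replicate 2).

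Lipin and seipin partners rose in 4 of 7 and fell in 1, beside 22.4% and 24.4% of all genes. Cnep1r1, the regulatory subunit of the phosphatase that activates lipins, rose from 1174 and 1196 to 1761 and 1645 (0.52, SE 0.0694, adjusted p = 0.00632). Without WT replicate 1 or WT replicate 2 its adjusted p was 0.0657 and 0.0746. Ctdnep1, the catalytic subunit of that phosphatase, was at 2216 and 2130 in the WT pair and 2405 and 2315 in the KO pair (0.12, adjusted p = 0.187). Fitm2, which acts in droplet formation, rose by 1.37 (SE 0.20) at an adjusted p of 0.00852, which became 0.0606 without WT replicate 2. Ywhab and Ywhaq, phosphoprotein adaptors of a family that binds lipins, rose by 1.01 and 0.80 (adjusted p = 0.005 and 0.00259). Without WT replicate 2 these were 0.0764 and 0.0556, and without WT replicate 1 Ywhab was 0.0558. Tmem159 (now Ldaf1), a seipin partner, was the member that fell (-0.33, SE 0.0731, adjusted p = 0.024, or 0.119, 0.146 and 0.0868 without WT replicate 1, WT replicate 2 and KO replicate 2). Ctdnep1 and Tmem159 were named after their values were seen.

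Phospholipid branch genes draw on the same phosphatidate and diacylglycerol. They rose in 8 of 16 and fell in 3, beside 22.4% and 24.4% of all genes. Cds1 and Cds2, the enzymes that make CDP-diacylglycerol, differed in direction. Cds1 was at 4380 and 5731 in the WT pair and 654.9 and 734.2 in the KO pair (-2.85, SE 0.15, adjusted p = 0.000972). Cds2, named after its value was seen, was at 5196 and 5040 against 7608 and 7479 (0.56, SE 0.0631, adjusted p = 0.0042, or 0.0577 without WT replicate 2). Dgkd, a diacylglycerol kinase, rose by 0.99 (SE 0.0608, adjusted p = 0.00124), and Ept1 (now Selenoi), an ethanolamine phosphotransferase, by 0.77 (SE 0.0604, adjusted p = 0.00193). Chka, a choline kinase, fell from 1649 and 1625 to 386 and 465.3 (-1.95, SE 0.11, adjusted p = 0.00112, or 0.0503 without WT replicate 2).

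**Figure D5:**
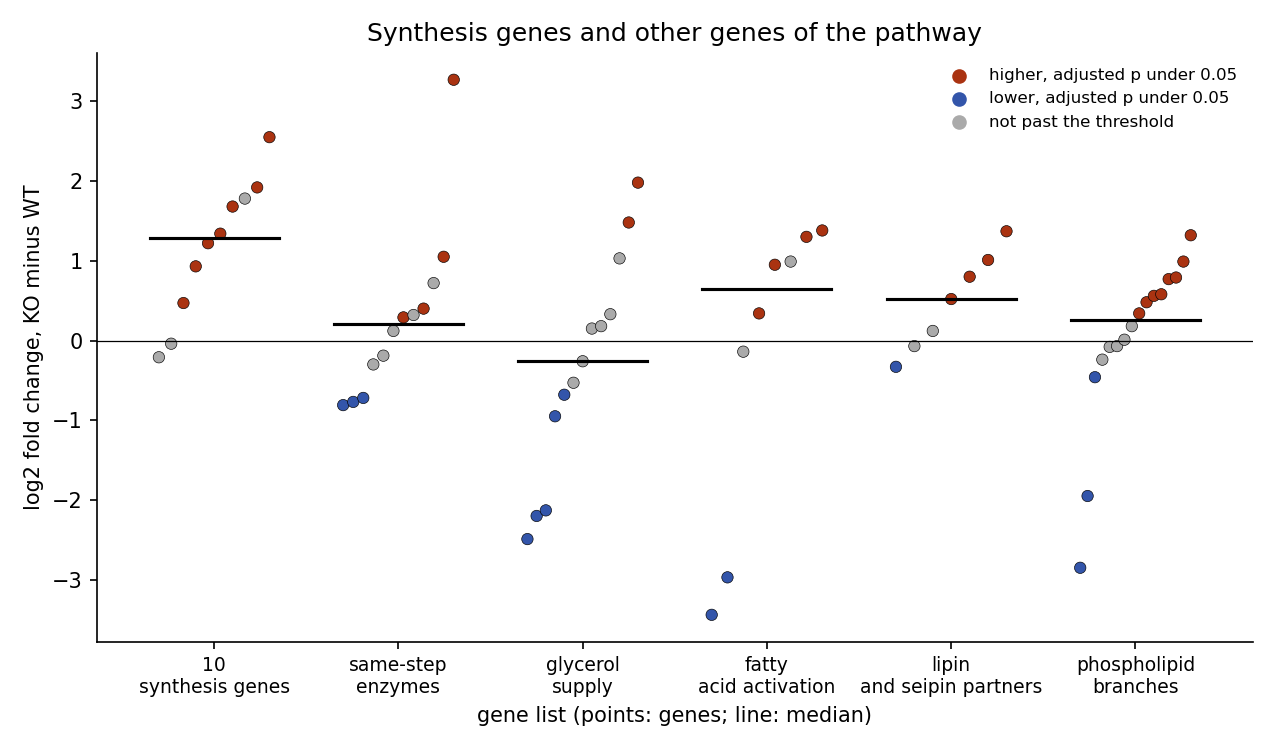
Log2 fold change (KO minus WT) of the 10 synthesis genes and of 5 lists of other pathway genes, 1 point per tested gene, with the median of each list as a line and calls in colour. The median is 1.28 for the synthesis genes and between -0.26 and 0.65 for the other lists.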

How the data were processed

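Polyadenylated RNA of 4 libraries (2 WT, 2 KO) was measured, grouped by the labels. The submitters' processing notes name CASAVA 1.8, TopHat2 2.0.10, HTSeq 0.5.3, DESeq2 1.4.5 and the GRCm38 build. Strand use in counting is not stated there. The deposited values are normalized counts, a signal that equals reads over a library size factor. The authors also deposited a table of their own comparison (log2 fold changes, p-values and a score). Dividing by the value of a single read gave whole reads for 100% of values (tolerance 0.01). Size factors were 0.981, 1.07, 1.07 and 0.896.

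limma 3.58.1 (R 4.3.3) was fitted with an intensity trend to log2 normalized counts (pseudocount 1) of genes averaging at least 10, with Benjamini-Hochberg adjustment. The pseudocount understates changes of low genes. Alternatives were other pseudocounts (0.5, 5), other filters (none, 50), TMM scaling, count tests of the recovered reads (edgeR 4.0.16, DESeq2 1.42.0), the replicate number as a block, and leaving out each library. The limma and edgeR fits were tested on simulated data. Exon lengths and positions came from GENCODE M21 (GRCm38). Genes named were the 10, their paralogs, Nck2, the 5 nearest profiles (1 of which is not reported here) and up to 4 per pathway list by smallest p. Further GPAT, lipin and marker genes, and those said to be so, were named after their values were seen. Members and lists were chosen with earlier results of these data known.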

Additional observations from a re-analysis of the deposited data

How the results depend on the processing

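The count of synthesis genes that rose, 7 with all libraries, was between 1 and 3 when a library was left out. The count stayed at 7 with the other pseudocounts, the other filters, TMM scaling and DESeq2, and edgeR lost Agpat2 alone. No synthesis gene was called lower under any alternative run. Of 120 values of the 10 genes under alternatives, 94 kept their direction and side of the threshold, 24 no longer passed, and 2, both for Gpam and neither past the threshold, changed sign. Over all genes, 3735 were higher and 4074 lower, against 524 to 2846 and 1061 to 3434 with a library left out. Other pathway genes numbered 22 higher and 14 lower, against 4 to 17 higher and 6 to 11 lower in those fits. The replicate numbers pair no samples in the labels, and the replicate difference of WT and KO correlated at -0.01 over 16710 genes. With the replicate block, 3 of the 10 genes were called higher, with 2737 higher and 3339 lower over all genes. edgeR called 3503 higher and 4070 lower, and DESeq2 3529 and 3931. TMM scaling moved the median of all genes by -0.006. Without a library, the log2 ratio difference ranged over 0.68 to 1.75 for Agpat2 to Agpat3, 1.38 to 1.71 for Lpin1 to Lpin2, -1.12 to -0.28 for Dgat1 to Dgat2, 2.25 to 4.21 for Pck1 to Pck2 and 1.02 to 3.06 for Gpd1 to Gpd1l. The lowest level of any of the 10 genes in a library was 699 normalized counts (Lpin2), and the WT libraries differed by up to 3.19-fold (Gpd1). How much read depth adds to the errors was not tested.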
